A study of Brassica napus with 14 samples.

Results

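Small heat shock proteins (sHSPs) and the disaggregase HSP101 were followed through the developing seed of oilseed rape (Brassica napus), an allotetraploid with an A and a C subgenome. The genes were chosen by Arabidopsis locus. From a list of 18 loci that also held the seed heat shock factor HSFA9, every gene paired with a listed locus in the authors' table was taken, whatever its level. This gave 46 genes, here called copies, of 13 loci, out of 96219 genes in all. HSFA9 (AT5G54070) and 4 cytosolic sHSP loci (AT3G46230, AT1G59860, AT1G07400 and AT5G12030) were not analysed here, so the set is described as HSP101 and 12 sHSP loci. The symbols come from Arabidopsis nomenclature, since the table pairs genes with loci and not with names.

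All plants were of cultivar DH12075, kept in growth chambers at 22 °C under long days and pollinated by hand. Polyadenylated RNA came from whole ovules on day 0 (OV) and from whole seeds at 7 days past fertilization (GLOB), 10 days (HEART), 28 days (MG) and 35 days (DS, dry seed). There were 2 libraries for DS and 3 for every other stage. The authors deposited 1 FPKM per gene and stage (fragments scaled by transcript length and library size), so neither the spread between replicates nor the depth of a library is known. No difference below could be tested, and none has an error. Whole seeds hold embryo, endosperm and seed coat, and a change in the share of a tissue cannot be told apart from a change in its RNA.

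sHSPs are chaperones that work without ATP. They hold unfolding proteins in a soluble state, from which HSP70 partners can refold them, and HSP101 pulls proteins out of aggregates together with HSP70. Plants have sHSP classes for the cytosol (CI, CII, CIII and others) and for plastids, mitochondria, the endoplasmic reticulum and peroxisomes. Besides heat, seed maturation is the best known setting in which they accumulate. In Arabidopsis, HSFA9 acts there downstream of the maturation regulator ABI3.

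The 46 copies together were lowest in OV and highest in DS. Their FPKM summed to 64.0 in OV and 462 in GLOB, 897 in HEART, then 3878 in MG and 19191 in DS. As a share of all FPKM of the stage this was 0.0144% in OV and 0.0721% in GLOB, 0.151% in HEART, then 0.257% in MG and 2.10% in DS. The DS sum was 4.95 times the MG sum, and the MG sum was 4.33 times the HEART sum. Both folds are of FPKM as deposited, and the FPKM of all genes summed to 593838 in HEART, 1.51e+06 in MG and 912604 in DS. Most of the DS signal came from few genes. The highest copy held 25.2% of it, the 2 highest held 46.6% and the 10 highest held 85.2%.

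Of the 46 copies, 38 reached 1 FPKM in at least 1 stage. The share that did so over all genes was 51.4%. Among the other 8, 4 were listed at 0 in every stage and 4 stayed below 1 FPKM. Copies at 1 FPKM or more numbered 13 in OV and 21 in GLOB, 29 in HEART, then 27 in MG and 34 in DS. At 100 FPKM or more there were 4 copies in HEART, 10 in MG and 22 in DS. Shares of all genes past either cut in a single stage were not computed, so these counts describe the 46 copies only. Among the 100 highest genes of the stage, 5 copies were found in DS and 0 in each of the 4 earlier stages.

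**Figure D1:**
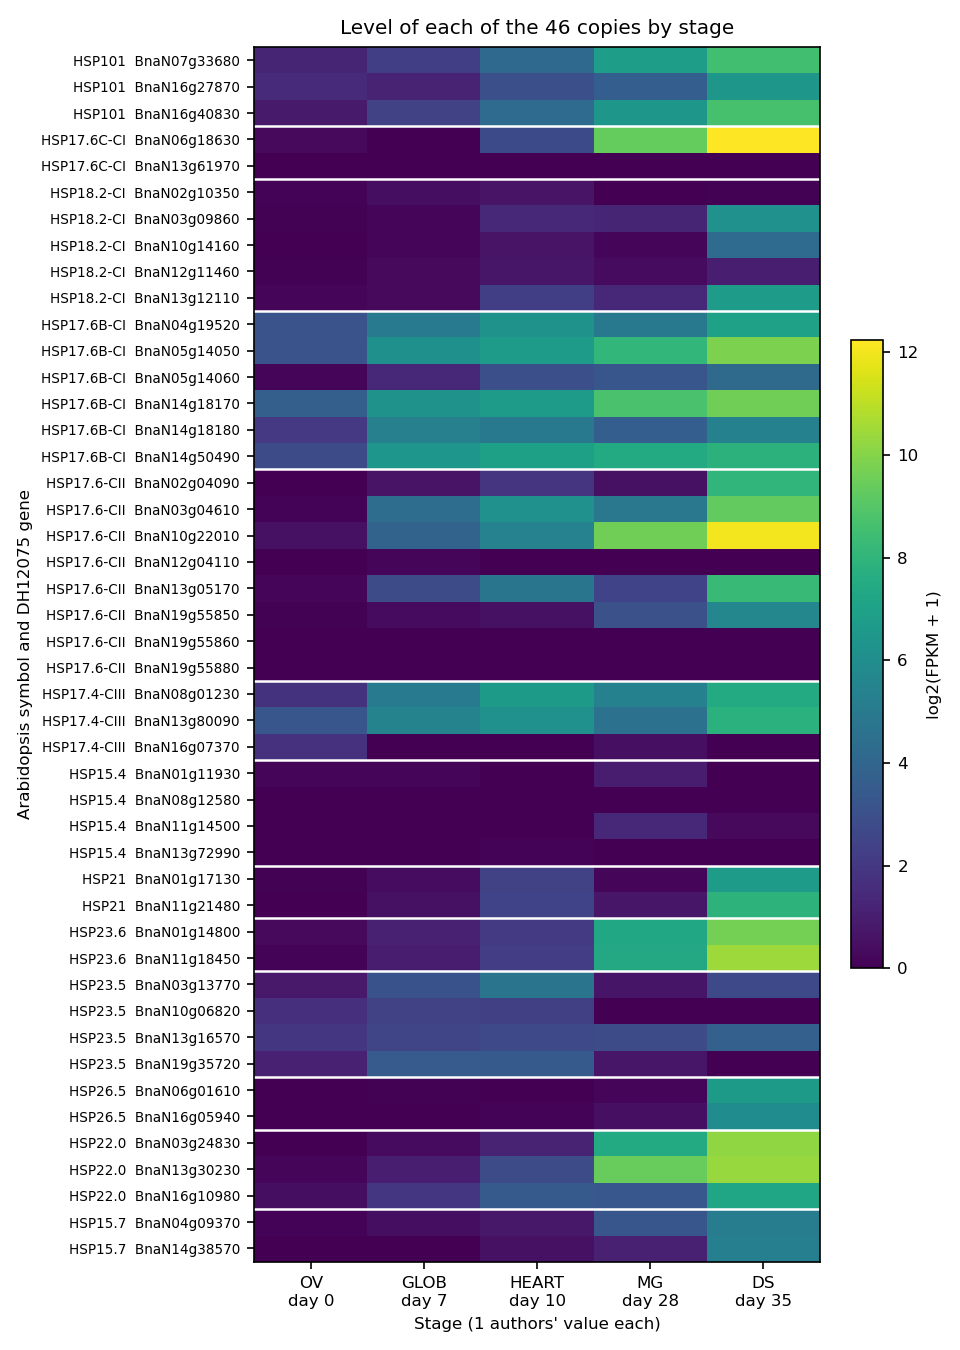
Level of each of the 46 copies, as log2(FPKM + 1), in rows grouped by locus, over the 5 stages in columns, with 1 authors' value per cell. The DS column is the brightest for most rows, while the rows of HSP15.4 and HSP23.5 stay dark there, and 2 copies (HSP17.6C-CI on chromosome 6 and HSP17.6-CII on chromosome 10) stand out in DS, at 4831 and 4119 FPKM.

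The highest stage was DS for 33 of the 46 copies. Over all genes it was DS for 19.0%, and for 29.6% of the genes with 1 FPKM in a stage. Of the other 5 copies that reached 1 FPKM, 1 was highest in OV, 2 in GLOB, 1 in HEART and 1 in MG. Over all 46 copies, 1 was highest in OV, 3 in GLOB, 3 in HEART and 2 in MG, and 4 were listed at 0. These stages held the highest value of 19.5% (OV), 17.5% (GLOB), 13.9% (HEART) and 19.5% (MG) of the genes with 1 FPKM, and of 15.4%, 12.5%, 13.1% and 14.0% of all genes. Summed over copies, 11 of the 13 loci were highest in DS. The exceptions were HSP23.5, highest in HEART, and HSP15.4, highest in MG. Shares over all loci summed in this way were not computed, so these counts describe the 13 loci only.

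Stages were compared by the difference in log2(FPKM + 1), which understates changes of low genes. A copy was counted as higher or lower at a difference of at least 1, which is 2-fold on that scale. A filter at 1 FPKM can be passed through the highest stage alone, so the counts of higher and lower copies are given out of 46. With a pseudocount of 1, no gene that stays below 1 FPKM can reach the threshold.

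In GLOB over OV, 15 copies were higher and 1 was lower. Over all genes 8.14% were higher and 5.64% lower (15.8% and 11.0% of the genes with 1 FPKM in a stage). The 15 were all 6 copies of HSP17.6B-CI, 3 of HSP17.6-CII, 2 each of HSP17.4-CIII and HSP23.5, and 1 each of HSP101 and HSP22.0. In HEART over GLOB, 3 days apart, 19 copies were higher and 0 lower, against 2.51% and 1.29% of all genes (4.89% and 2.50% of those with 1 FPKM). The median difference of the 46 copies in that step was 0.57, and 0.00 over all genes.

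In MG over HEART the copies went different ways, with 13 higher and 12 lower, against 8.95% and 11.5% of all genes (17.4% and 22.4% of those with 1 FPKM). This balance depended on which scaling was used. With each stage divided by its median ratio to the geometric mean of each gene over stages, it stayed at 13 higher and 12 lower. When every stage was set to the same sum, 9 were higher and 15 lower. The median of all genes with 1 FPKM was then -0.98, against -0.09 as deposited, and relative to that shifted median 16 were higher and 11 lower. In DS over MG, 28 copies were higher and 1 lower, against 9.77% and 10.9% of all genes (19.0% and 21.3% of those with 1 FPKM). The median difference of the 46 was 2.03, and 0.00 over all genes. In DS over OV, 33 copies were higher and 3 lower, against 11.9% and 13.1% of all genes (23.1% and 25.5% of those with 1 FPKM).

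**Figure D2:**
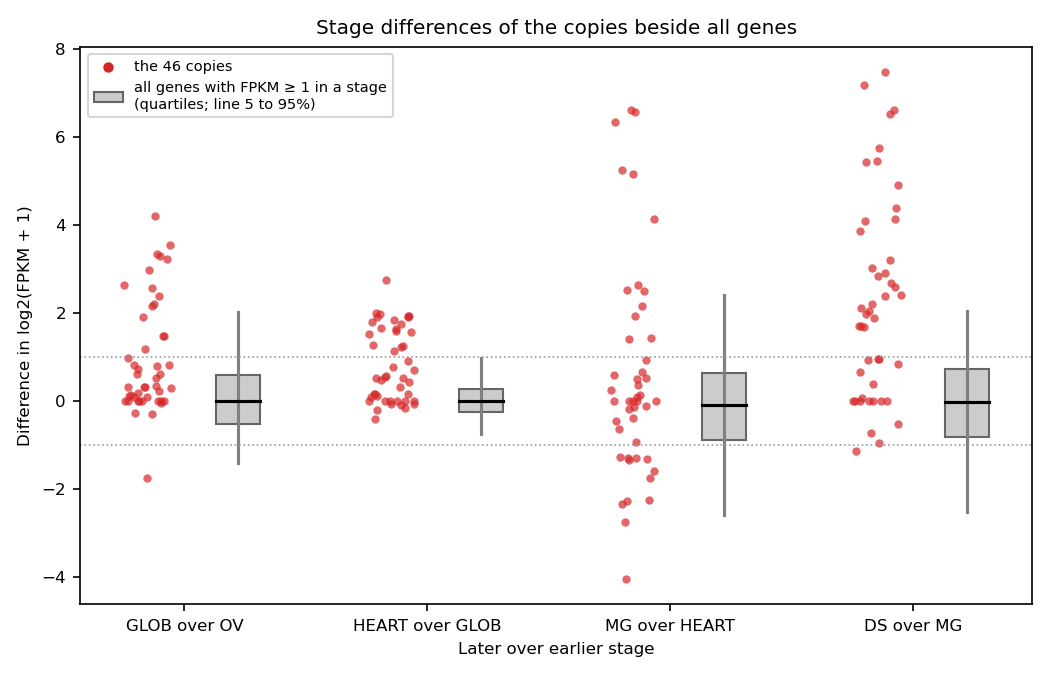
Differences in log2(FPKM + 1) between consecutive stages for the 46 copies (red points) beside all genes with 1 FPKM or more in a stage (grey box for the quartiles with the median line, grey line from 5 to 95%). For DS over MG the copies centre on 2.03 and reach 7.48, while for MG over HEART they spread from -4.03 to 6.62.

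The 28 copies that were higher in DS than in MG had reached MG in 3 ways. In 10 of them MG was already higher than HEART, in 8 MG and HEART differed by less than the threshold, and in 10 MG was lower than HEART. The last pattern, a dip in MG between higher HEART and DS values, was noticed after the values were seen. It was found in 1.60% of all genes and 3.12% of those with 1 FPKM. For the first 2 patterns the shares over all genes were not computed. The 10 copies with a dip belong to 5 loci, and in 9 of them DS exceeded HEART as well.

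HSP101 (AT1G74310) had 3 copies and was present at each stage. Its summed FPKM was 3.96 in OV and 9.11 in GLOB, 42.7 in HEART, then 212 in MG and 873 in DS. Each step was thus counted as higher, though on a common sum the differences of GLOB over OV and MG over HEART were 0.61 and 0.95, below the threshold. The medians of all genes with 1 FPKM were then -0.32 and -0.98. The level in DS was 4.11 times that in MG. Its copies on chromosomes 7 (BnaN07g33680) and 16 (BnaN16g40830) had similar values. The first had 372 FPKM in DS and 113 in MG, and the second 412 FPKM in DS and 87.6 in MG. The other copy on chromosome 16, BnaN16g27870, was lower, with 88.8 FPKM in DS and 11.5 in MG.

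Class CI, a large cytosolic class of sHSPs, was represented by 3 loci with distinct courses. HSP17.6C-CI (AT1G53540) had 1 expressed copy, BnaN06g18630, at 0.228 FPKM in OV and 6.19e-07 in GLOB, 5.76 in HEART, then 642 in MG and 4831 in DS. This was the highest value of any copy, and the gene ranked 6 among all genes in DS and 212 in MG. Its DS level was 7.52 times the MG level, and its MG level 112 times the HEART level. The second copy, BnaN13g61970 on chromosome 13, was listed at 0 in all 5 stages.

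HSP17.6B-CI (AT2G29500) differed in being well expressed early. Its 6 copies summed to 37.1 FPKM in OV and 302 in GLOB, 445 in HEART, then 926 in MG and 2076 in DS. Its sum was the largest of the 13 loci in OV, GLOB, HEART and MG, but not in DS. Its DS level was only 2.24 times the MG level. The sum in MG was 2.08 times that in HEART, but on a common sum this difference turned to -0.29 in log2(FPKM + 1). The median of all genes with 1 FPKM was then -0.98.

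The copies of HSP17.6B-CI did not share 1 course. BnaN05g14050 and BnaN14g18170, which are paired with the same Darmor gene, were highest, with 900 and 761 FPKM in DS, 277 and 422 in MG, and 104 and 109 in HEART. BnaN14g50490 was the highest copy in GLOB and HEART, at 84.1 and 122 FPKM, and had 177 FPKM in MG and 232 in DS. BnaN04g19520 and BnaN14g18180 showed the dip. The first had 73.7 FPKM in HEART, 29.4 in MG and 126 in DS, and the second 29.4 FPKM in HEART, 11.6 in MG and 40.4 in DS. BnaN14g18180 and BnaN05g14060 carry the identifiers next to those of the 2 highest copies, and BnaN05g14060 stayed at or below 17.8 FPKM.

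HSP18.2-CI (AT5G59720) was low until DS. Its 5 copies summed to 0.308 FPKM in OV and 1.06 in GLOB, 7.29 in HEART, then 3.40 in MG and 201 in DS, which is 59.1 times the MG level. The copies on chromosomes 13 (BnaN13g12110, 109 FPKM), 3 (BnaN03g09860, 72.8 FPKM) and 10 (BnaN10g14160, 18.2 FPKM) carried the DS signal, and the other 2 copies were at 1.05 and 0.0629 FPKM there.

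The class CII locus HSP17.6-CII (AT5G12020), also cytosolic, had the largest sum in DS. Over its 8 copies the FPKM was 0.717 in OV and 40.3 in GLOB, 144 in HEART, then 817 in MG and 5364 in DS, 6.57 times the MG level. Its higher level in MG than in HEART rested on 1 gene. BnaN10g22010 on chromosome 10 had 0.447 FPKM in OV and 13.7 in GLOB, 42.6 in HEART, then 775 in MG and 4119 in DS, ranked 12 among all genes in DS, and held 94.9% of the locus sum in MG and 76.8% in DS. Without it the difference of the locus for MG over HEART was -1.27 in log2(FPKM + 1), against 2.49 with it.

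A further 3 CII copies dipped in MG. BnaN03g04610 had 72.8 FPKM in HEART, 29.3 in MG and 634 in DS. BnaN13g05170 had 25.8 FPKM in HEART, 4.56 in MG and 300.0 in DS. BnaN02g04090 had 2.69 FPKM in HEART, 0.469 in MG and 261 in DS. For BnaN02g04090 the difference of DS over MG, 7.48 in log2(FPKM + 1), was the largest of the 46 copies. BnaN19g55850 was at 7.32 FPKM in MG and 49.2 in DS, while 3 copies never reached 1 FPKM.

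HSP17.4-CIII (AT1G54050), the single class CIII member of Arabidopsis, was high in HEART and low in MG. Its sum was 13.6 FPKM in OV and 74.8 in GLOB, 172 in HEART, then 64.0 in MG and 403 in DS. The MG level was 0.372 of the HEART level, and the DS level was 6.29 times the MG level. Both expressed seed copies dipped. BnaN08g01230 had 101 FPKM in HEART, 40.6 in MG and 180 in DS, and BnaN13g80090 had 71.0 FPKM in HEART, 23.0 in MG and 223 in DS. A remaining copy, BnaN16g07370, was at 2.32 FPKM in OV and was the only one of the 46 counted as lower in GLOB than in OV.

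HSP15.4 (AT4G21870), another cytosolic sHSP, was close to absent throughout. Its 4 copies summed to at most 2.61 FPKM, in MG, and to 0.238 FPKM in DS. Its copy BnaN11g14500, with 0.238 FPKM in DS and 1.70 FPKM in MG, was the 1 copy counted as lower in DS than in MG.

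**Figure D3:**
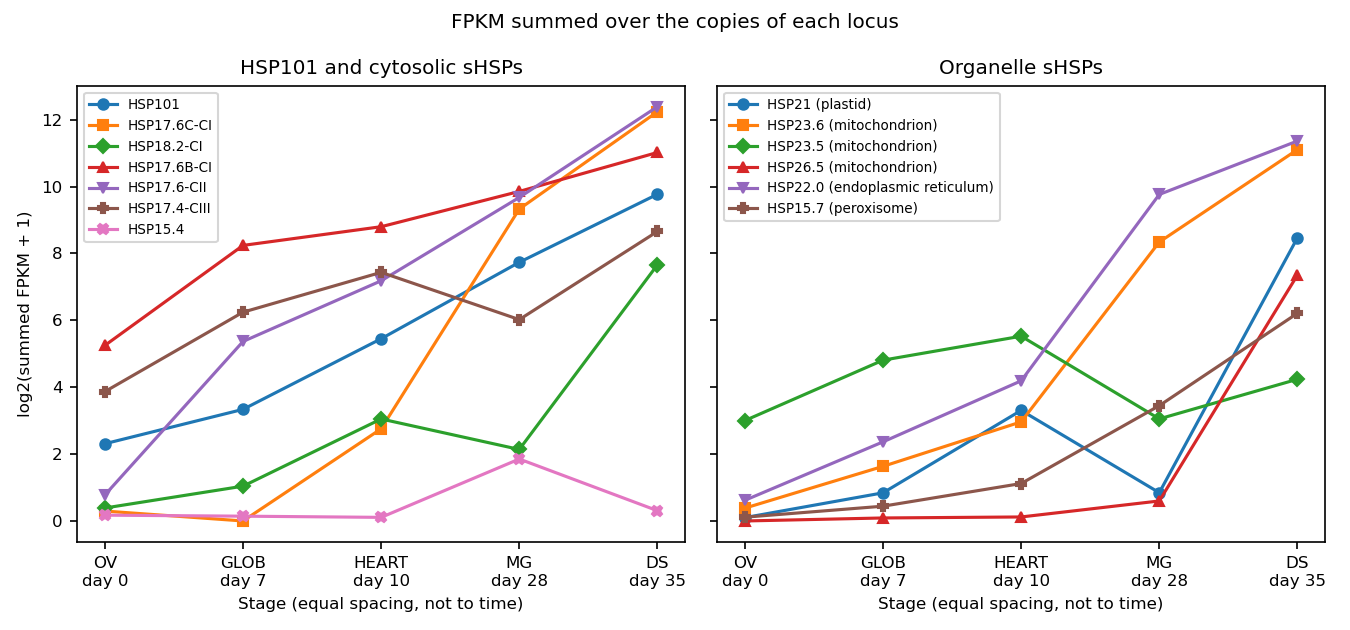
FPKM summed over the copies of each locus, as log2(summed FPKM + 1), at the 5 stages (equally spaced on the axis, not to time), with HSP101 and cytosolic sHSPs on the left and organelle sHSPs on the right. HSP21, HSP17.4-CIII, HSP18.2-CI and HSP23.5 lie lower in MG than in HEART (0.797, 64.0, 3.40 and 7.30 FPKM in MG, in that order, and 8.90, 172, 7.29 and 45.1 FPKM in HEART), HSP26.5 is near 0 until DS, and HSP15.4 alone has its highest value in MG.

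Among organelle sHSPs, the endoplasmic reticulum and mitochondrial forms HSP22.0 and HSP23.6 were abundant in MG already. HSP22.0 (AT4G10250), which resides in the endoplasmic reticulum, summed to 0.536 FPKM in OV and 4.16 in GLOB, 17.3 in HEART, then 869 in MG and 2633 in DS. Its DS level was 3.03 times the MG level, and its MG level 50.3 times the HEART level. BnaN13g30230, with 1319 FPKM in DS and 680 in MG, and BnaN03g24830, with 1170 FPKM in DS and 181 in MG, supplied most of it. The third copy, BnaN16g10980, held the larger part in HEART, at 10.1 FPKM, and had 8.85 FPKM in MG and 144 in DS.

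HSP23.6 (AT4G25200), of mitochondria, summed to 0.305 FPKM in OV and 2.10 in GLOB, 6.80 in HEART, then 323 in MG and 2203 in DS, 6.81 times the MG level. Both copies had a larger value at each later stage. BnaN11g18450 had 1372 FPKM in DS and 166 in MG, and BnaN01g14800 had 831 FPKM in DS and 158 in MG.

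The mitochondrial relative HSP23.5 (AT5G51440) differed, with its highest sum in HEART. Its 4 copies summed to 7.02 FPKM in OV and 27.0 in GLOB, 45.1 in HEART, then 7.30 in MG and 17.9 in DS. The highest single value was 25.4 FPKM in HEART, for BnaN03g13770, which had 0.615 FPKM in MG and 5.44 in DS. Its MG over HEART difference of -4.03 was the most negative of the 46 copies. BnaN10g06820 and BnaN19g35720 were listed at 0 in DS, after 4.04 and 10.1 FPKM in HEART. BnaN13g16570 was instead highest in DS, at 12.4 FPKM, with 6.04 in MG.

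HSP26.5 (AT1G52560), the third mitochondrial form, was below 1 FPKM in every stage before DS. It was listed at 0 in OV, and had 0.0643 FPKM in GLOB and 0.0867 in HEART, then 0.514 in MG and 162 in DS. Both copies shared this course, with 101 FPKM in DS and 0.110 in MG for BnaN06g01610, and 61.2 FPKM in DS and 0.405 in MG for BnaN16g05940. With BnaN10g14160 of HSP18.2-CI they were the 3 copies below 1 FPKM in all earlier stages and at 10 FPKM or more in DS. The share of all genes with this pattern was not computed, so the count describes the analysed copies only.

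HSP21 (AT4G27670), the plastid sHSP, dipped in MG before a high DS value. Its sum was 0.0724 FPKM in OV and 0.792 in GLOB, 8.90 in HEART, then 0.797 in MG and 353 in DS. Both copies had it. BnaN11g21480 had 4.58 FPKM in HEART, 0.673 in MG and 244 in DS, and BnaN01g17130 had 4.32 FPKM in HEART, 0.124 in MG and 109 in DS.

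HSP15.7 (AT5G37670), of peroxisomes, was low until MG, and its DS sum was the lowest of the 11 loci that were highest in DS. Its sum was 0.0817 FPKM in OV and 0.359 in GLOB, 1.17 in HEART, then 9.92 in MG and 73.1 in DS. Its copies had similar values in DS but not in MG. BnaN04g09370 had 34.9 FPKM in DS and 8.71 in MG, and BnaN14g38570 had 38.2 FPKM in DS and 1.21 in MG.

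Ordered by the summed FPKM in DS, the loci were HSP17.6-CII (5364), HSP17.6C-CI (4831), HSP22.0 (2633), HSP23.6 (2203), HSP17.6B-CI (2076), HSP101 (873), HSP17.4-CIII (403), HSP21 (353), HSP18.2-CI (201), HSP26.5 (162), HSP15.7 (73.1), HSP23.5 (17.9) and HSP15.4 (0.238). With no spread known, neighbours in this order such as HSP17.6-CII and HSP17.6C-CI, or HSP17.4-CIII and HSP21, cannot be ranked with confidence. In MG the order began with HSP17.6B-CI (926), HSP22.0 (869), HSP17.6-CII (817) and HSP17.6C-CI (642). By compartment, cytosolic members together had 13748 FPKM in DS and 2667 in MG, and mitochondrial ones had 2383 in DS and 331 in MG.

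The copies lay on 15 of the 19 chromosomes, 21 on A and 25 on C, and each of the 13 loci had copies on both subgenomes. In DS the A and C sums of a locus differed by less than the threshold for 9 loci, A was higher for 2 and C for 2. The same shares over all loci with copies on both subgenomes were not computed, so these counts describe the 13 loci only. The differences towards A were large. HSP17.6C-CI had 4831 FPKM on A and was listed at 0 on C, and HSP17.6-CII had 5014 FPKM on A and 349 on C. C was higher for HSP21, with 109 FPKM on A and 244 on C, and for the weakly expressed HSP23.5, with 5.44 on A and 12.4 on C. The C value of HSP23.5 is that of BnaN13g16570, which lies on a C chromosome but is paired with an A identifier of Darmor. When copies were sorted by the letter of the Darmor identifier instead, HSP23.5 had 17.9 FPKM on A and was listed at 0 on C, and HSP17.6B-CI, with 143 FPKM on A and 1933 on C, passed the threshold towards C. By that reading A was higher for 3 loci and C for 2. The C share of the summed FPKM of the 46 copies was 62.3% in OV and 59.5% in GLOB, 47.8% in HEART, then 41.6% in MG and 28.2% in DS, while for all placed genes it stayed between 48.0% (GLOB) and 50.1% (MG). The low C share in MG and DS rested on the 2 highest copies, BnaN06g18630 and BnaN10g22010, both on A. Without them, a choice made after the values were seen, it was 63.0% in OV and 61.3% in GLOB, 50.5% in HEART, then 65.5% in MG and 52.8% in DS. Reads that match several copies may have been divided among them in ways the sources used here do not give, which leaves single-copy and subgenome values uncertain. This bears most on the 9 copies that share a Darmor identifier with another copy.

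**Figure D4:**
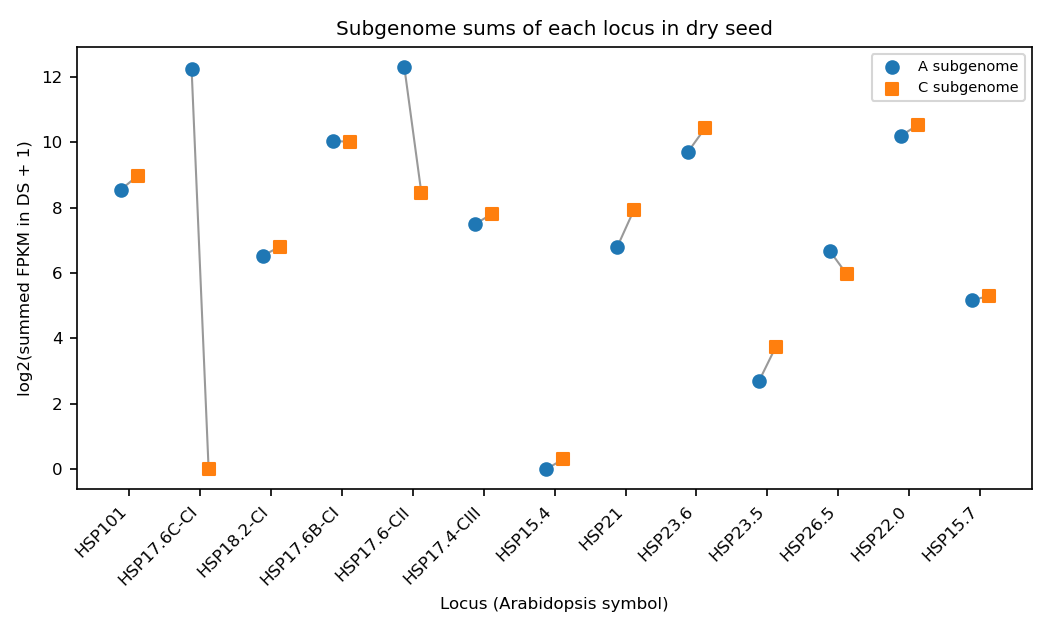
Summed FPKM in DS of the A copies (blue circles) and C copies (orange squares) of each of the 13 loci, as log2(summed FPKM + 1). The 2 large gaps are HSP17.6C-CI (4831 on A, listed at 0 on C) and HSP17.6-CII (5014 on A, 349 on C).

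Other heat shock factors, DNA-binding proteins of activator and repressor types, were read from a list of 20 loci with 85 copies. In DS over MG 25 of the 85 (29.4%) were higher and 1 (1.18%) lower, against 9.77% and 10.9% of all genes, with a median difference of 0.32. In MG over HEART 9 (10.6%) were higher and 21 (24.7%) lower, against 8.95% and 11.5% of all genes. On a common sum these counts were 6 and 29, and relative to the shifted median of all genes 10 and 19. The repressor-type factors HSFB2A and HSFB2B and the activator-type HSFA4A had the lowest differences for MG over HEART and the highest for DS over MG, among loci with 10 FPKM in the higher stage. HSFB2A had 36.0 FPKM in HEART, 2.43 in MG and 161 in DS. HSFB2B had 30.2 FPKM in HEART, 5.93 in MG and 50.6 in DS, and HSFA4A had 18.1 in HEART, 1.56 in MG and 20.6 in DS. HSFC1, with 12.5 FPKM in MG and 1.37 in HEART, and the constitutive activator HSFA1B, with 26.2 in MG and 9.07 in HEART, were higher in MG than in HEART, though for HSFA1B the difference was only 0.17 on a common sum. HSFA1A had 11.2 FPKM in MG and 5.97 in HEART. Its difference was 0.81, below the threshold, and -0.38 on a common sum. No locus of this list with 10 FPKM in DS or MG was counted as lower in DS than in MG. Among these loci only HSFA8 had a negative difference, with 17.0 FPKM in DS and 18.3 in MG (a difference of -0.10, and 0.57 on a common sum). ABI3, the maturation regulator, had 1.81 FPKM in HEART, 145.6 in MG and 60.2 in DS. Its highest stage was MG.

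The partner chaperones HSP70, HSP90 and ClpB were read from a list of 20 loci, 19 of which had 112 copies. In DS over MG 31 copies (27.7%) were higher and 12 (10.7%) lower, against the same 9.77% and 10.9% of all genes, with a median of 0.00. In MG over HEART 13 (11.6%) were higher and 15 (13.4%) lower, close to the 8.95% and 11.5% of all genes. On a common sum these counts were 4 and 40, and relative to the shifted median 9 and 16. The cytosolic HSP70-4 had 3038 FPKM in DS and 885 in MG, the plastid CPHSC70-1 had 546 in DS and 154 in MG, and HSP90.3 had 33.9 in DS and 0.919 in MG. HSP70B, heat-inducible in Arabidopsis, had 957 FPKM in MG and 80.2 in HEART. CLPB4, the mitochondrial relative of HSP101, had 30.8 FPKM in MG and 7.06 in HEART, and HSP90.6, also mitochondrial, had 76.7 in MG and 21.7 in HEART. On a common sum these 2 differences were 0.72 and 0.46, below the threshold.

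Chaperones of the endoplasmic reticulum differed in direction from the sHSP of the same compartment. The HSP70 forms BIP1, with 4.40 FPKM in DS against 70.8 in MG, and BIP2, with 39.0 in DS against 387 in MG, were lower in DS. HSP90.7 had 14.7 FPKM in DS, against 80.0 FPKM in MG and 170 in HEART. HSP22.0 was higher in DS than in MG, as given above. HSC70-1, the main constitutive cytosolic HSP70, had 1061 FPKM in MG and 1166 in HEART.

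Further heat stress genes came from a list of 6 loci, 5 of which had 16 copies. In DS over MG 4 copies (25%) were higher and 3 (18.75%) lower, against 9.77% and 10.9% of all genes. In MG over HEART 1 (6.25%) was higher and 4 (25%) lower, against 8.95% and 11.5% of all genes. On a common sum the MG over HEART counts were 0 and 8, and relative to the shifted median 1 and 4. MBF1C, a transcriptional coactivator of the heat response, had 55.4 FPKM in HEART, 5.37 in MG and 45.4 in DS, and the immunophilin ROF2 had 28.9 FPKM in HEART, 12.1 in MG and 194 in DS. ROF1 had 200.4 FPKM in HEART, 261 in MG and 174 in DS, and neither step reached the threshold. Its difference for MG over HEART was 0.38, and -0.96 on a common sum, and that for DS over MG was -0.58, and 0.14 on a common sum. HSBP, which binds heat shock factors and dampens them, had 81.4 FPKM in HEART, 70.9 in MG and 18.1 in DS.

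**Figure D5:**
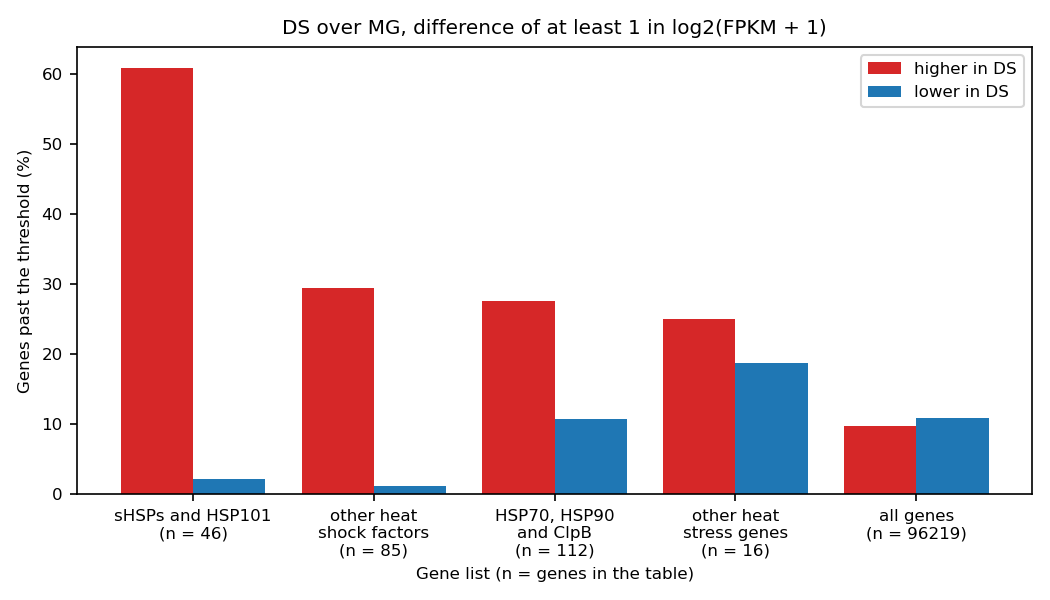
Percentage of genes counted as higher (red) or lower (blue) in DS than in MG, for the 46 sHSP and HSP101 copies, the other lists and all 96219 genes, with the number of genes under each list. In the sHSP and HSP101 set 28 of 46 were higher and 1 lower, against 9.77% and 10.9% of all genes.

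The stage labels were read against marker genes. The storage protein genes CRU3 and SESA1 and the oil body gene OLEO1 were highest in MG (40958, 89465 and 91892 FPKM), and the late maturation genes EM6 and EM1 in DS (44833 and 888 FPKM). LEC1, of young embryos, was highest in HEART (65.7 FPKM). The seed coat genes BAN and TT12 were also highest in HEART, at 248 and 51.5 FPKM, and in DS BAN had 0.0780 FPKM and TT12 was listed at 0. The ovule genes INO and STK were present in OV (54.9 and 187 FPKM) but were highest in GLOB (57.7 and 801 FPKM). BEL1, also an ovule gene, was highest in HEART, at 7.51 FPKM, against 3.79 in OV. Seed coat and ovule markers were thus lowest in DS, where the sHSPs were highest, and the part of changing tissue shares in the sHSP values was not tested.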

How the data were processed

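Polyadenylated RNA of 14 libraries in 5 stages was sequenced by the authors as single-end reads of 100 bases. Per the labels' protocols, Trimmomatic (version 0.36) did the trimming, HiSat2 aligned the reads to a genome of DH12075, and Cuffquant and Cuffdiff gave counts and normalization. The submitters' processing notes also name TopHat2, FastQC and Cuffnorm. The authors deposited FPKM values, 1 per gene and stage; how libraries were combined and which annotation was used are not given in the sources used here. A further 2 columns match no sample described and were not used. The depth of the libraries is unknown.

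Stages were compared in log2(FPKM + 1) with a threshold of 1, without a test, in Python 3.11.15 with pandas 2.3.3. The subgenome is the letter that most Darmor identifiers on a DH12075 chromosome number carry (at least 79.6%). The members, the other gene lists and most settings were chosen with earlier results of these data known. Named genes were all member loci, their highest copies and copies that peak in another stage than their locus, and from each other list the 3 largest rises and falls for MG over HEART and DS over MG with at least 10 FPKM in the higher stage. Further copies were named after their values were seen. In the RefSeq gene table of cultivar Da-Ae, 0 of the 46 Darmor identifiers matched, so no name or sequence was taken from it. Alternatives were another pseudocount, threshold and filter, 2 rescalings, summing over loci or Darmor identifiers, another subgenome reading and leaving out the highest copy or, for the C share, the 2 highest in DS.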

Additional observations from a re-analysis of the deposited data

How the results depend on the processing

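No paired analysis was possible because values of single libraries were not used here, each stage having 1 authors' FPKM per gene, and so the replicate block and the leaving out of replicates were not run. Of the 63 recomputed counts, 48 stayed within 1.5 times and 15 moved. With loci summed, 13 units replace 46 copies, so fewer were there to be counted: 7 were counted as changed for GLOB over OV, 8 for HEART over GLOB, 11 for MG over HEART, 13 for DS over MG and 12 for DS over OV, 11 were highest in DS, and 3 dipped in MG. A threshold of 2 left 2 copies for HEART over GLOB, 15 for MG over HEART, 2 with a dip in MG and 2 loci with an A to C difference in DS. With a pseudocount of 0.1, which admits low values, 29 copies were counted for GLOB over OV. The number of copies highest in MG was 1, and became 2 with no filter, 0 with a mean FPKM of at least 5 and 0 on a common sum. Of the differences of single loci past the threshold, 2 changed sign, both for MG over HEART: HSP17.6B-CI to -0.29 on a common sum, and HSP17.6-CII to -1.27 without its highest copy. On a common sum the median of all genes with 1 FPKM was -0.98 for MG over HEART. A further 14 differences below the threshold changed sign on a common sum, none of them of a member locus. Summing copies that share a Darmor identifier, the dip in MG and its alternatives were chosen after seeing the data.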
